A study of Mus musculus with 18 samples.

Results

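Bone marrow of mice that overexpress the G form of CCAT2 was compared with marrow of mice that overexpress its T form. The comparison takes 8 of the 18 arrays of the series, chosen by their genotype label. These are 4 CCAT2-G mice and 4 CCAT2-T mice, all labelled DRAI-, a status that the labels do not spell out. The other mice are 6 labelled CCAT2-GT (DRAI+), which enter only the estimate of the spread, and 4 wild-type (WT) mice, whose values are given for orientation. All animals were C57Bl6, the transgene was said to act in the whole body, and each array held total RNA of flash-frozen marrow cells of 1 mouse. The labels give neither the promoter that drives the transgene, nor the number of founder lines, nor the age of the animals. No probeset named for CCAT2 was used, so the level of the transgene in each mouse was not analysed here. The labels name no littermates, so the allele and any other difference between the transgenic lines cannot be told apart.

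CCAT2 is a human long non-coding RNA transcribed from a region far from protein-coding genes but near MYC. It carries a single-base variant, G or T, that has been studied in colon cancer, where the RNA was described in connection with MYC and WNT activity. Bone marrow makes all blood cells: neutrophils and monocytes, red cells, B cells and, from very large cells called megakaryocytes, the platelets. A marrow RNA profile is therefore a mixture of these lineages, of the stroma that houses them, and of general programmes such as ribosome production. In such bulk samples fewer cells of a type and less RNA per cell cannot be told apart.

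Values are log2 expression after RMA, a standard normalization of Affymetrix arrays, so a difference of 1 is a doubling. Differences are CCAT2-G minus CCAT2-T, with the standard error (SE) of a limma fit on all 18 arrays, and a gene passed when its Benjamini-Hochberg adjusted p over the 14505 genes tested lay below 0.05. The titles call the mice biological replicates. The limma p-values rest on the spread between the mice of all 18 arrays, those of the CCAT2-GT mice included. Defining markers differed in level between the cell types. Maturing neutrophil markers averaged 12.5 in CCAT2-G and 12.6 in CCAT2-T mice, and erythroid markers averaged 11.4 in both. Other markers were dimmer. Those of stem and progenitor cells averaged 6.1 in CCAT2-G and 5.9 in CCAT2-T mice, those of natural killer cells 5.6 and 5.7, and those of bone 5.1 and 4.3. Several features of the arrays touch the results below. The interquartile range of an array was narrow, at 2.90 to 2.98, on 3 arrays, those of CCAT2-G replicate 1, CCAT2-T replicate 1 and CCAT2-T replicate 2, and 3.15 to 3.32 on the other 5. This split is not a batch that the labels record. CCAT2-T replicate 3 alone had a high level of Xist, which female cells use to shut down 1 X chromosome, at 12.02 against at most 4.05 in the other 7 mice, and its Y-linked Kdm5d was at 2.05. CCAT2-G replicate 3 had little B-cell precursor RNA, and CCAT2-T replicates 3 and 4 had high levels of immediate-early genes, which cells switch on within minutes of a stimulus.

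No gene passed: 0 of 14505 genes (0%) had an adjusted p under 0.05. Without adjustment, 912 genes (6.29%) had p under 0.05 in limma, of which 611 (4.21%) were higher and 301 (2.08%) lower in CCAT2-G mice. The values of the 4 CCAT2-G mice all lay above those of the 4 CCAT2-T mice in 168 genes (1.16%) and all below them in 164 genes (1.13%), 332 genes (2.29%) in all. Over all genes tested the median difference was -0.003, with 49.4% of genes higher and 50.6% lower in CCAT2-G mice. The exact permutation test of 4 against 4 mice has 70 splits and cannot give a p below 0.0286, which every gene without overlap reaches, so it cannot pass an adjustment over many genes.

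The gene nearest to the threshold was Add1, which encodes adducin 1, a protein that caps actin filaments and joins them to the spectrin skeleton under the cell membrane. Add1 was at 8.89, 8.90, 8.54 and 8.44 in CCAT2-G mice and at 9.43, 9.63, 10.06 and 9.81 in CCAT2-T mice. All 4 CCAT2-G mice lay below all 4 CCAT2-T mice. The WT mice lay between them, at 8.98, 9.05, 9.20 and 9.00. The difference was -1.04 (SE 0.16, limma adjusted p = 0.0579), a level 2.06-fold lower in CCAT2-G mice, with an exact two-sided permutation p of 0.0286. The adjusted p fell under 0.05 in 3 of the alternatives, namely after quantile normalization (0.0254), with genes under the 50th percentile left out (0.0476) and without CCAT2-T replicate 1 (0.0403). It was 0.72 on the 8 arrays alone, 0.49 within the wider arrays, 0.36 without CCAT2-G replicate 3, 0.36 without CCAT2-T replicate 3 and 0.21 with a score of sex-linked genes as a covariate. It was 0.83 when the 3 Add1 probesets were averaged, because the other probesets differed less, by -0.61 and -0.28. The related adducins Add2 and Add3, looked at after the value of Add1 was seen, differed by 0.00 (SE 0.26) and -0.08 (SE 0.18).

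Trp53bp1, which encodes the DNA break repair factor 53BP1, came next among the genes lower in CCAT2-G marrow. It was at 6.87, 6.55, 6.63 and 6.84 in CCAT2-G mice, against 7.76, 7.21, 7.77 and 7.07 in CCAT2-T mice and 7.01 to 7.32 in WT mice. The groups did not overlap, but the difference of -0.73 (SE 0.16) had a limma adjusted p of 0.743. Of its 5 other probesets 4 had the same direction, with differences of at most 0.28 in size. A probeset of similar level, with means of 6.82 in CCAT2-G and 6.83 in CCAT2-T mice, differed by only -0.007. The mean of the Trp53bp1 probesets differed by -0.20. Camkk2, a kinase that activates the energy sensor AMPK, was at 7.83, 7.67, 8.00 and 8.19 in CCAT2-G mice and at 8.88, 8.34, 9.32 and 8.54 in CCAT2-T mice. Its 3 other probesets had the same direction. The remaining genes of smallest p on this side were Gapvd1, Tpcn1, Dclk2, Pak7, Tyw1, Cchcr1 and Ptpa, with differences of -0.31 for the kinase Pak7 to -0.60 for Ptpa, an activator of the phosphatase PP2A. Pak7 lay near 3.30, the limit under which genes were left out, at 3.31 to 3.62 in CCAT2-G and 3.73 to 3.84 in CCAT2-T mice. Gapvd1 acts in endocytosis, Dclk2 binds microtubules, and Tyw1 takes part in tRNA modification. All 7 had an adjusted p of 0.743, and only Tpcn1, an ion channel of lysosomes, overlapped between the groups. The other probesets had the same direction for Dclk2 and Ptpa (2 of 2 each), 3 of 4 did for Gapvd1 and 1 of 2 for Tpcn1 and Pak7, and the 1 other probeset of Tyw1 had the opposite one.

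On the other side Vcan had the largest difference of the 10 genes of smallest p. It encodes versican, a large proteoglycan of the extracellular matrix that monocytes also make. Vcan was at 6.40, 6.35, 8.58 and 7.93 in CCAT2-G mice, against 5.45, 5.06, 5.30 and 4.91 in CCAT2-T mice and 4.64, 5.01, 5.74 and 6.18 in WT mice. Each CCAT2-G mouse lay above each CCAT2-T and each WT mouse, and replicates 3 and 4 were the highest. The difference was 2.14 (SE 0.57, limma adjusted p = 0.743), and it was 1.77 and 1.58 at the 2 other probesets with signal, while 5 dim probesets differed by -0.16 to 0.11. Within the 3 narrow arrays it was 1.15 and within the 5 wider arrays 2.52.

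Il1rap, the shared signalling chain of the interleukin-1 receptor, was at 6.25, 6.30, 6.64 and 6.31 in CCAT2-G mice and at 5.96, 5.76, 5.34 and 5.85 in CCAT2-T mice. WT mice, at 5.65 to 5.89, lay with the CCAT2-T mice and below every CCAT2-G mouse. Of its 4 other probesets 2 had the same direction, and the mean of the probesets differed by 0.21. Casp4, an inflammatory caspase activated by bacterial lipopolysaccharide in the cytosol, was at 6.35, 6.82, 6.90 and 7.01 in CCAT2-G mice and at 6.04 to 6.22 in CCAT2-T mice. Socs3, the feedback inhibitor of STAT3 signalling, was at 6.88, 7.17, 6.92 and 7.08 in CCAT2-G mice, which is a narrow band, and at 5.51, 5.45, 6.78 and 5.73 in CCAT2-T mice. Socs3 differed by 1.14 (SE 0.42, adjusted p = 0.743), and by 1.45 without CCAT2-T replicate 3. WT mice were at 5.20, 4.89 and 4.93 apart from replicate 3 at 6.96. Il1r2, the decoy receptor for interleukin-1, was higher by 0.89 (SE 0.36) with overlapping groups, at 8.14 to 9.38 in CCAT2-G mice against 7.56 to 8.15 in CCAT2-T mice.

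The list of genes of smallest p on the higher side held 7 more. Trmt10c, a subunit of mitochondrial RNase P, was higher by 0.71 (SE 0.17), and Mrps24, a protein of the mitochondrial ribosome, by 0.71 (SE 0.18). Rpp40, a subunit of nuclear RNase P, was higher by 0.55 (SE 0.14), and Ecsit, which takes part in the assembly of respiratory complex I, by 0.52 (SE 0.14). Psmg2, a chaperone of proteasome assembly, was higher by 0.81 (SE 0.21), Lap3, a leucine aminopeptidase, by 0.72 (SE 0.19) and Scfd1, a factor of transport between the endoplasmic reticulum and the Golgi, by 0.71 (SE 0.18). Adjusted p was 0.743 for each, and only Psmg2 overlapped between the groups. The other probesets had the same direction for Trmt10c, Mrps24 and Rpp40 (1 of 1 each) and Psmg2 (2 of 2), and 1 of 2 did for Scfd1.

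**Figure D1:**
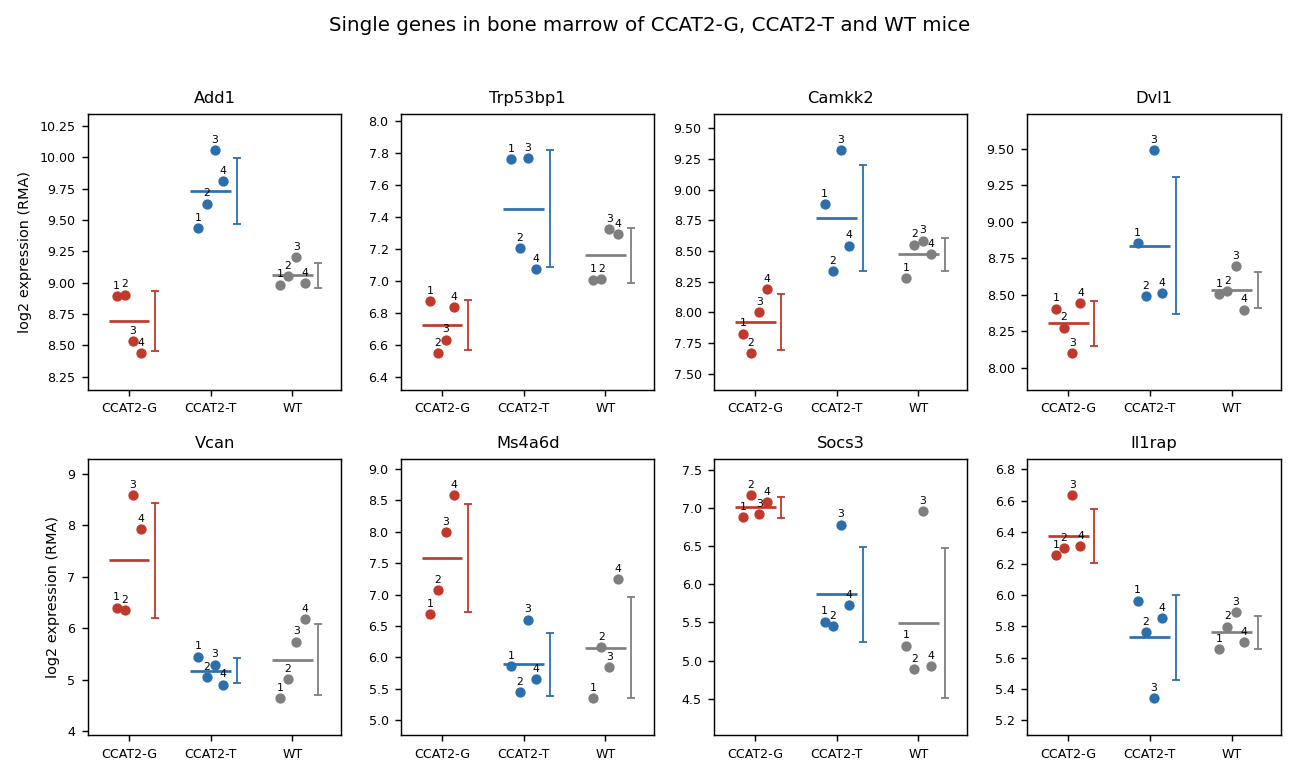
Log2 expression of 8 genes in each CCAT2-G, CCAT2-T and WT mouse (points, numbered by replicate), with group means (lines) and SD (bars at the side, n = 4). Add1, Trp53bp1, Camkk2 and Dvl1 lie lower, and Vcan, Ms4a6d, Socs3 and Il1rap higher, in all 4 CCAT2-G mice than in all 4 CCAT2-T mice.

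**Figure D2:**
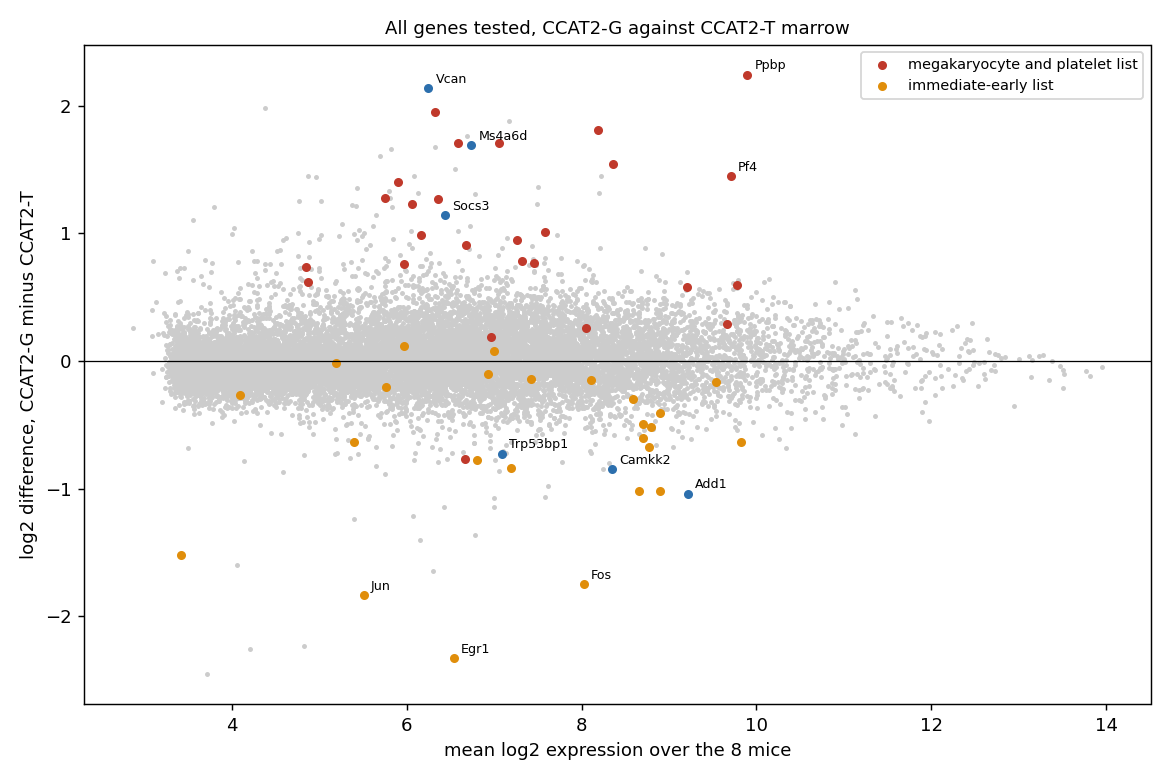
Difference between CCAT2-G and CCAT2-T mice (log2, vertical) against mean log2 expression over the 8 mice (horizontal) for 14505 genes (grey), with megakaryocyte and platelet genes in red, immediate-early genes in orange and 6 genes described in the text in blue. The red points lie above 0 except 1, and 23 of 25 orange points lie below 0.

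Lineages and pathways were then described by 42 gene lists without the sex-linked one, with the median difference of the measured members. Members that fell under the limit on low values were not counted, and no list was tested as a whole. Megakaryocyte and platelet genes had the largest median, 0.97, and immediate-early genes the lowest, -0.52. The next highest median was 0.31, for monocytes and macrophages, and 24 lists lay within 0.1 of 0. The sign of the median was the same whichever single mouse was left out in 18 of the 42 lists.

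**Figure D3:**
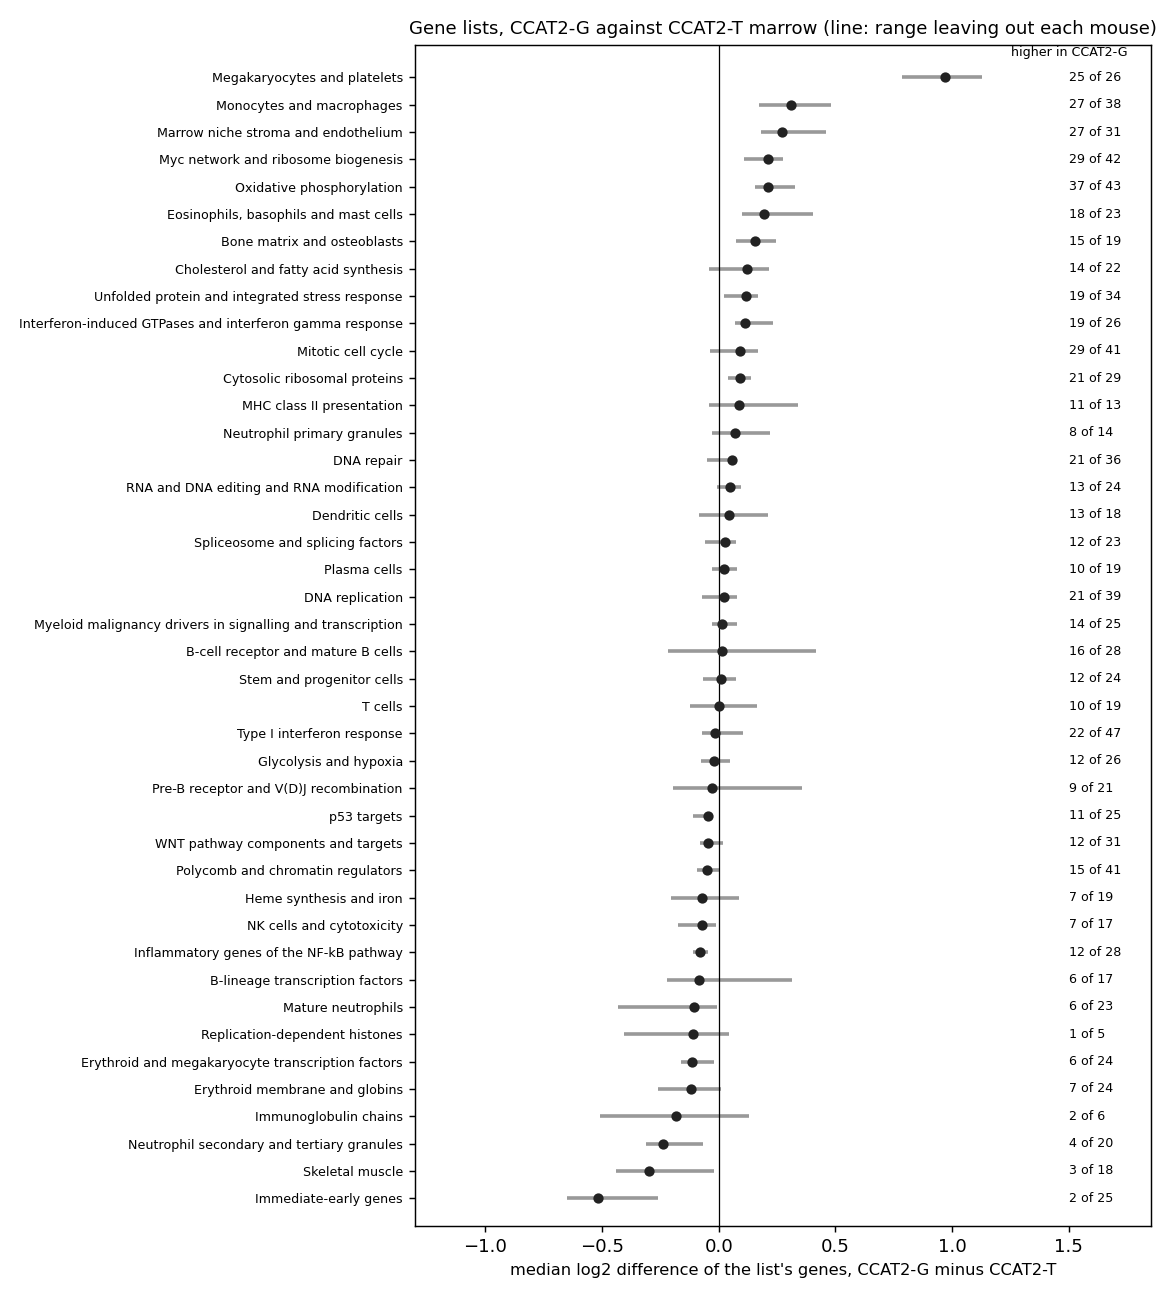
Median log2 difference between CCAT2-G and CCAT2-T mice for the measured genes of 42 lists (points), with the range of the median when each of the 8 mice was left out in turn (grey lines) and the number of members higher in CCAT2-G mice at the right. Megakaryocyte and platelet genes stand at 0.97 and immediate-early genes at -0.52.

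Megakaryocyte and platelet genes were higher in CCAT2-G than in CCAT2-T marrow almost throughout the list. Of 26 measured members 25 were higher, 0 passed the adjusted threshold, and 9 (34.6%) had all CCAT2-G mice above all CCAT2-T mice, where 1.16% of all genes did. The mean of the list in each mouse was 7.28, 8.14, 7.31 and 8.31 in CCAT2-G mice and 7.12, 6.96, 6.17 and 6.74 in CCAT2-T mice. CCAT2-G replicates 2 and 4 were the highest of the 8 and CCAT2-T replicate 3 the lowest. The WT mice were at 7.24, 7.33 and 7.15, with replicate 4 at 8.59, so 3 of them lay near the lower CCAT2-G mice and all 4 above the highest CCAT2-T mouse.

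Ppbp and Pf4 are chemokines stored in the alpha granules of platelets. Ppbp was at 10.55, 11.73, 10.15 and 11.65 in CCAT2-G mice and at 9.75, 9.81, 6.55 and 8.99 in CCAT2-T mice, a difference of 2.25 (SE 1.00, limma adjusted p = 0.779). Pf4 was at 9.71, 11.01, 9.72 and 11.28 in CCAT2-G mice and at 9.53, 9.41, 8.16 and 8.82 in CCAT2-T mice, a difference of 1.45 (SE 0.76, adjusted p = 0.781). In both genes the groups stayed apart, narrowly between the 2 lower CCAT2-G and the 2 higher CCAT2-T mice. WT mice were at 9.78 to 11.94 for Ppbp and at 9.41 to 11.37 for Pf4. The SD of Pf4 was 0.84 in CCAT2-G, 0.63 in CCAT2-T and 1.76 in CCAT2-GT mice. The CCAT2-GT mice thus widened the pooled SE of Pf4, and their list means ran from 6.4 to 10.0.

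The surface receptors of platelets ranked the mice in a similar way. Clec1b, the receptor CLEC-2 that binds podoplanin, was at 8.27, 9.94, 8.20 and 9.95 in CCAT2-G mice and at 7.92, 7.60, 6.35 and 7.24 in CCAT2-T mice. Gp1bb, a chain of the receptor for von Willebrand factor, was at 7.22, 8.55, 7.04 and 8.82 in CCAT2-G mice and at 6.96, 6.60, 4.99 and 6.26 in CCAT2-T mice. Neither gene overlapped between the groups, and the differences were 1.81 (SE 0.97) and 1.71 (SE 0.95), both with an adjusted p of 0.781. Gp5 and Gp9, which join the same receptor complex, were higher by 1.27 (SE 0.80) and 0.95 (SE 0.69), Gp6, the collagen receptor, by 0.74 (SE 0.42), and Itga2b, a chain of the fibrinogen receptor, by 0.77 (SE 0.67).

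Among the other products of megakaryocytes, Myl9, a myosin light chain, was higher by 1.96 (SE 1.12), Alox12, a platelet lipoxygenase, by 1.71 (SE 1.02) and Tubb1, the tubulin of the platelet cytoskeleton, by 1.55 (SE 1.01). Thbs1, the matrix protein thrombospondin of alpha granules, was at 7.97, 8.45, 7.31 and 8.61 in CCAT2-G mice and in a narrow band of 6.95 to 7.20 in CCAT2-T mice. Vwf and Selp, which encode von Willebrand factor and P-selectin, were higher by 1.23 (SE 0.88) and 0.99 (SE 0.61). The exception was Nbeal2, which is needed to form alpha granules. It was at 6.15, 5.97, 6.94 and 6.05 in CCAT2-G mice and at 6.45, 6.50, 7.90 and 7.33 in CCAT2-T mice, a difference of -0.77 (SE 0.36).

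The transcription factors of the lineage did not share the direction of these genes. Of 24 measured erythroid and megakaryocyte transcription factors 6 were higher, 0 passed, and the median was -0.12. Gata1, which both lineages need, differed by -0.19 (SE 0.22), at 8.59, 8.98, 8.19 and 7.97 in CCAT2-G mice and 8.50 to 8.72 in CCAT2-T mice. Gata2, a factor of progenitors and early megakaryocytes, differed by -0.35 (SE 0.28), Nfe2, which drives platelet release, by -0.15 (SE 0.12), and Fli1, an ETS factor of megakaryocytes, by 0.27 (SE 0.20).

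The size of the megakaryocyte and platelet difference moved with the kind of array and with a score of sex-linked genes. The median was 1.35 within the 5 wider arrays, 0.21 within the 3 narrow arrays, where 22 of 26 members were still higher, and 0.87 with the spread of the arrays as a block. With the sex-linked score as a covariate it was 0.55, while without CCAT2-T replicate 3, the mouse with high Xist, it was 0.89 with 25 of 26 members higher. CCAT2-T replicate 3 was the lowest CCAT2-T mouse in 18 of the 26 genes. Leaving out any 1 mouse gave medians of 0.78 to 1.13.

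**Figure D4:**
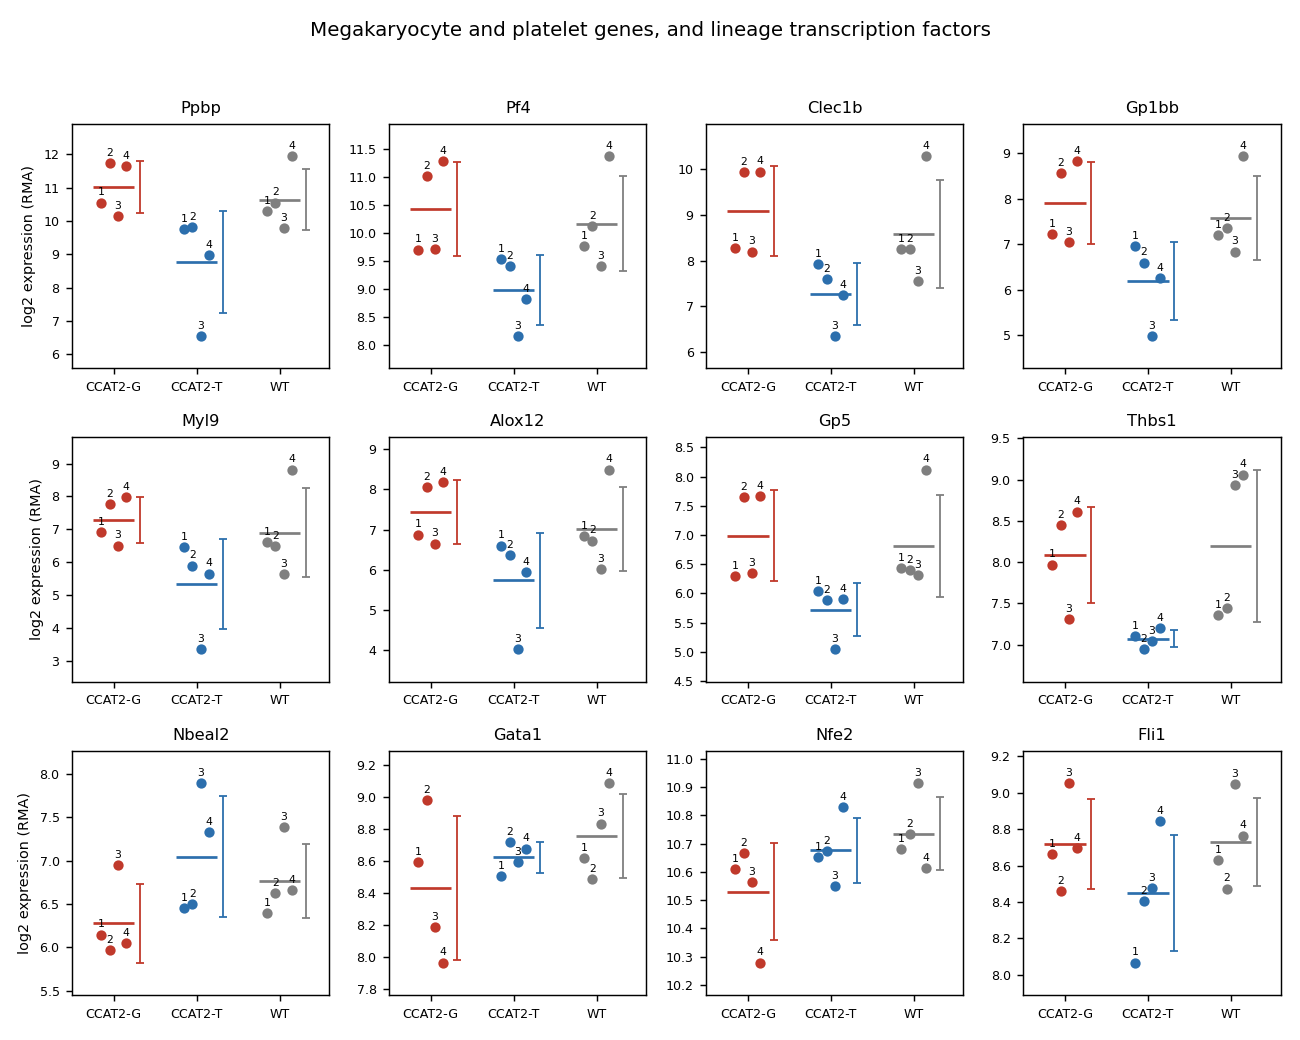
Log2 expression of 9 megakaryocyte and platelet genes and 3 lineage transcription factors (Gata1, Nfe2, Fli1) in each CCAT2-G, CCAT2-T and WT mouse (points, numbered by replicate), with group means (lines) and SD (bars at the side, n = 4). In Ppbp, Pf4, Clec1b, Gp1bb, Myl9, Alox12, Gp5 and Thbs1 all CCAT2-G mice lie above all CCAT2-T mice, while Nbeal2 and the transcription factors overlap.

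The 4 members of smallest p with groups that did not overlap are shown with the sequence upstream of their RefSeq start (250 bases, GRCm38.p6, 5′ to 3′ on the strand of the gene), because most members of the list had the same direction and GATA and ETS factors are known to act on platelet genes. Capitals mark GATA motifs (the letters GATA after A or T and before A or G) and ETS motifs (the letters GGAAG after A or C), on either strand, with no overlap between the kinds in these windows. The windows are chr5:90768268-90768517 (plus strand) for Ppbp, chr5:90772185-90772434 (plus strand) for Pf4, chr6:129397047-129397296 (plus strand) for Clec1b and chr16:18622404-18622653 (minus strand) for Gp1bb.
Ppbp: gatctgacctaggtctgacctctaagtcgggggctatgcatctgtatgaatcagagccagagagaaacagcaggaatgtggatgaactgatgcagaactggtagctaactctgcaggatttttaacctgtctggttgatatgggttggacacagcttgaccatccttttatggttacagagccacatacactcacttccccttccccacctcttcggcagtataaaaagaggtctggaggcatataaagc
Pf4: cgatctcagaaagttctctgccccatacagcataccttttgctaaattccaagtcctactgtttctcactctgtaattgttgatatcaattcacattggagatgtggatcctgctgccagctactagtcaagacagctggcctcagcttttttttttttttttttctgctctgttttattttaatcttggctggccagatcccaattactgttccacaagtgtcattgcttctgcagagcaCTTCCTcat
Clec1b: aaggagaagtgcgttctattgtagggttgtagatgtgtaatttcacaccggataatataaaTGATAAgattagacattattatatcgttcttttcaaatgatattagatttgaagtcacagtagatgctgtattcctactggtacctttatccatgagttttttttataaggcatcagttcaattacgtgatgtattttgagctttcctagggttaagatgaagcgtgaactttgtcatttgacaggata
Gp1bb: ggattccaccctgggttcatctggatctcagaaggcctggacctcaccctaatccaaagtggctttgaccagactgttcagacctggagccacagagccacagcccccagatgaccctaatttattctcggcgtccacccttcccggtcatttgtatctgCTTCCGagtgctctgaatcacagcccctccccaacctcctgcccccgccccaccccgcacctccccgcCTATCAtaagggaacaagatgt

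Ppbp and Pf4 lie next to each other in these coordinates. The Ppbp window held neither motif, the Pf4 window 1 ETS motif beside the start, the Clec1b window 1 GATA motif, and the Gp1bb window 1 of each. Of 32851 promoter windows of the same length, 26.5% held a GATA motif and 39.2% an ETS motif. Of the 26 measured members of the list 21 had a window, and 7 of these (33.3%) held a GATA motif and 12 (57.1%) an ETS motif. The shares of the list count only the first window of each gene, while the shares before them count every window, so they differ in unit. These are matches of letters, and no binding was measured.

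Stroma and bone genes were also mostly higher in CCAT2-G mice. Of 31 measured genes of marrow niche stroma and endothelium 27 were higher in CCAT2-G mice, with a median of 0.27 and 0 passed. The list averaged 5.60, 6.32, 5.49 and 5.91 in CCAT2-G mice and 5.82, 5.63, 4.85 and 5.17 in CCAT2-T mice, so the groups overlapped and CCAT2-T replicates 3 and 4 were the lowest. Cxcl12, the chemokine that retains stem cells in the marrow, was at 8.60, 9.77, 8.12 and 8.92 in CCAT2-G mice and at 9.03, 8.41, 5.57 and 7.14 in CCAT2-T mice, a difference of 1.31 (SE 0.97). Kitl, the stem cell factor of the niche, was higher by 1.61 (SE 1.00), Lepr, the leptin receptor that marks stromal cells around sinusoids, by 1.45 (SE 1.10), and Adipoq, the fat-derived hormone adiponectin, by 1.45 (SE 1.08). All 3 were lowest in CCAT2-T replicate 3. Within the narrow arrays Cxcl12, Lepr and Adipoq differed by -0.12, -0.39 and -0.20. The median was 0.70 within the wider arrays and -0.09 within the narrow arrays, and it was 0.46 without CCAT2-G replicate 1 and 0.18 without CCAT2-G replicate 2.

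Of 19 bone matrix and osteoblast genes 15 were higher, with a median of 0.15. Ibsp, the bone sialoprotein of mineralizing cells, was at 6.76, 7.41, 5.04 and 7.37 in CCAT2-G mice and at 6.66, 6.19, 3.42 and 3.67 in CCAT2-T mice. CCAT2-G replicate 3 was thus well under its group, as CCAT2-T replicates 3 and 4 were. Cdh5, the cadherin of endothelial junctions, was at 4.41 to 5.02 in CCAT2-G mice and at 3.83 to 4.61 in CCAT2-T mice. In both the stroma list and the platelet list CCAT2-G replicates 2 and 4 had the highest means of the 8 mice and CCAT2-T replicates 3 and 4 the lowest, and WT replicate 4 had the highest mean of the WT mice. The part of stroma in the platelet gene difference was not tested.

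Monocyte and macrophage genes were mostly higher in CCAT2-G mice. Of 38 measured members 27 were higher, with a median of 0.31, 0 passed and 2 (5.26%) lay higher without overlap, where 1.16% of all genes did. The list averaged 7.84, 8.31, 8.24 and 8.55 in CCAT2-G mice and 7.88, 7.73, 8.06 and 7.94 in CCAT2-T mice, and CCAT2-G replicate 1, on a narrow array, was the one inside the CCAT2-T range. Ms4a6d, a membrane protein of monocytes and macrophages, was at 6.69, 7.08, 7.99 and 8.58 in CCAT2-G mice and at 5.86, 5.45, 6.60 and 5.66 in CCAT2-T mice, a difference of 1.69 (SE 0.52, limma adjusted p = 0.743). Cd163, the haemoglobin scavenger receptor of tissue macrophages, was at 5.11, 6.21, 4.47 and 5.77 in CCAT2-G mice and at 3.89 to 4.24 in CCAT2-T mice, a difference of 1.25 (SE 0.52, adjusted p = 0.757). Neither gene overlapped. Of the 2 other Ms4a6d probesets 1 had the same direction.

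Other monocyte genes differed less or the other way. Fcgr1, the high-affinity receptor for IgG, was higher by 0.63 (SE 0.34), Ms4a6c by 0.53 (SE 0.32) and Ctss, a lysosomal protease of antigen presentation, by 0.29 (SE 0.15). Csf1r, the receptor for the growth factor of macrophages, differed by -0.32 (SE 0.24), and Cybb, the catalytic chain of the phagocyte oxidase, by -0.57 (SE 0.23), at 10.42 to 11.47 in CCAT2-G mice and 11.16 to 11.61 in CCAT2-T mice. The median was 0.19 within the wider arrays and -0.02 within the narrow ones, and it was 0.48 without CCAT2-G replicate 1 and 0.17 without CCAT2-T replicate 2.

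Genes of later neutrophil granules and mature neutrophils were mostly lower by small amounts. Of 20 genes of the secondary and tertiary granules, which form late in maturation, 4 were higher, with a median of -0.24 that was -0.066 without CCAT2-G replicate 4, -0.12 without CCAT2-G replicate 2 and -0.13 without CCAT2-T replicate 4. Ltf, lactoferrin, was at 12.88, 12.41, 13.37 and 12.41 in CCAT2-G mice and at 12.98 to 13.21 in CCAT2-T mice, and Camp, cathelicidin, at 13.24 to 13.65 in CCAT2-G mice and 13.56 to 13.64 in CCAT2-T mice. CCAT2-G replicate 3 was the highest of its group in both, and the other 3 mice lay under the CCAT2-T range. Of 23 genes of mature neutrophils 6 were higher, with a median of -0.11. It was -0.43 without CCAT2-G replicate 3, but -0.0097 without CCAT2-G replicate 4 and -0.013 without CCAT2-T replicate 4. S100a8, which was near the top of the scale, differed by -0.08 (SE 0.07). Of 14 genes of the primary granules, made early, 8 were higher, with a median of 0.07 and differences of -0.47 to 0.70. Mpo, at -0.40 (SE 0.26), and Elane, at -0.08 (SE 0.38), were among the lower ones. Orm1, an acute-phase protein stored in neutrophil granules, was among the 4 members of the later granules on the higher side, at 0.64 (SE 0.29).

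Eosinophil, basophil and mast cell genes were mostly higher, with a size that depended on the mice and the weights. Of 23 measured members 18 were higher, with a median of 0.20. It was 0.10 without CCAT2-G replicate 3, 0.32 without CCAT2-G replicate 1 or 2, 0.40 without CCAT2-T replicate 4, and -0.00024 with array weights. Prg2, the major basic protein of eosinophils, was at 8.88, 8.48, 12.05 and 6.37 in CCAT2-G mice and at 8.24, 9.02, 5.63 and 7.08 in CCAT2-T mice. Epx, eosinophil peroxidase, was likewise highest in CCAT2-G replicate 3, at 8.89, and lowest in CCAT2-T replicate 3, at 3.42. Ccr3, the eotaxin receptor, was the 1 member (4.35%) higher without overlap, where 1.16% of all genes were. It was at 4.13 to 5.01 in CCAT2-G mice and 3.03 to 4.04 in CCAT2-T mice, which reaches under the limit of 3.30. Another 1 member (4.35%) lay lower without overlap, against 1.13% of all genes. Cpa3, a protease of mast cells and basophils, differed by 0.52 (SE 0.38).

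B-lineage genes showed no common direction. Of 28 genes of the B-cell receptor and mature B cells 16 were higher (median 0.01), of 21 genes of the pre-B receptor and V(D)J recombination 9 (median -0.03) and of 17 B-lineage transcription factors 6 (median -0.09). CCAT2-G replicate 3 lay far under every other CCAT2-G and CCAT2-T mouse in the precursor genes. Rag1, the recombinase, was at 8.87, 8.25, 2.57 and 8.81 in CCAT2-G mice and at 8.60, 8.47, 7.19 and 8.17 in CCAT2-T mice. Vpreb1, a surrogate light chain, was at 8.57, 9.16, 4.22 and 8.66 in CCAT2-G mice and at 8.31, 8.35, 6.74 and 8.01 in CCAT2-T mice. Without that mouse the pre-B median was 0.36 and the mature B-cell median 0.42, both on the side of CCAT2-G. Without CCAT2-T replicate 3 they were -0.10 and -0.17, on the other side. With any 1 mouse left out they ran from -0.20 to 0.36 and from -0.22 to 0.42.

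The receptor chain Cd79a was at 9.08, 8.55, 5.07 and 9.01 in CCAT2-G mice and at 8.93, 8.49, 7.32 and 8.31 in CCAT2-T mice, and Ms4a1, CD20, differed by 0.18 (SE 0.74). CCAT2-T replicate 3 was the lowest of its group in all 4 of these genes. Zbtb20, a repressor active in B cells and plasma cells, was the 1 of 17 B-lineage factors (5.88%) lower without overlap, where 1.13% of all genes were. It was at 6.57, 6.24, 6.16 and 6.60 in CCAT2-G mice and 6.64 to 7.31 in CCAT2-T mice. Its difference was -0.50 (SE 0.16, adjusted p = 0.743), with the same direction at all 8 other probesets. Immunoglobulin chains (2 of 6 higher, median -0.18), plasma cell genes (10 of 19, 0.02) and MHC class II genes (11 of 13, 0.09) completed the lineage.

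T-cell genes had a median of 0.00, with 10 of 19 higher, Cd3e of the receptor complex at -0.01 (SE 0.23) and Cd8b1 of the co-receptor at 0.69 (SE 0.34). Of 17 natural killer and cytotoxicity genes 7 were higher, with a median of -0.07, and 2 (11.8%) lay lower in CCAT2-G mice without overlap, against 1.13% of all genes. Ncr1, the receptor NKp46, was at 5.11, 5.07, 4.51 and 4.99 in CCAT2-G mice and at 5.26 to 5.40 in CCAT2-T mice. Il2rb, a chain of the receptors for interleukin-2 and interleukin-15, was at 5.69 to 6.03 in CCAT2-G mice and at 6.17, 6.17, 6.93 and 6.25 in CCAT2-T mice. Eomes, a transcription factor of these cells, differed by -0.57 (SE 0.24). Dendritic cell genes had a median of 0.04, with 13 of 18 higher.

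Red-cell genes were slightly lower in CCAT2-G mice, with 7 of 24 genes of the erythroid membrane and globins higher (median -0.12) and 7 of 19 genes of heme synthesis and iron (median -0.07). Ermap, an erythroid membrane protein, was at 10.61, 10.91, 10.10 and 9.70 in CCAT2-G mice and in a band of 10.70 to 10.84 in CCAT2-T mice. Ank1, which anchors the spectrin skeleton, was at 9.29, 9.28, 8.92 and 8.37 in CCAT2-G mice and 9.24 to 9.51 in CCAT2-T mice. CCAT2-G replicates 3 and 4 were the low mice in both, and without replicate 4 the membrane and globin median was 0.01. Slc4a1, the anion exchanger band 3, differed by -0.19 (SE 0.17) and Klf1, the erythroid transcription factor, by -0.02 (SE 0.27). Add1, which belongs to the same membrane skeleton in red cells, was lower in CCAT2-G replicates 1 and 2 as well, which had Ermap and Ank1 near the CCAT2-T level. The part of red cells in the Add1 difference was not tested.

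Stem and progenitor genes were split evenly, with 12 of 24 higher and a median of 0.01. Kit, the receptor for stem cell factor, differed by 0.10 (SE 0.28) and Cd34 by 0.14 (SE 0.42), and both changed sign when single mice were left out. Cd48, a surface protein of progenitors and mature leukocytes, differed by 0.48 (SE 0.22), at 8.45 to 9.56 in CCAT2-G mice and 8.30 to 8.86 in CCAT2-T mice. Of 18 skeletal muscle genes, which mark tissue taken along with the bone, 3 were higher and the median was -0.30. This rested on CCAT2-T replicate 1, whose muscle list mean was 5.99 against 4.53 to 4.89 in the other 7 mice, and without it the median was -0.02. Atp2a1, the calcium pump of muscle, was at 5.61 in that mouse.

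Genes of ribosome production and of the respiratory chain were mostly higher in CCAT2-G marrow. Of 42 genes of the Myc network and ribosome biogenesis 29 were higher, with a median of 0.21 and 0 passed, and 9 had an unadjusted p under 0.05 on the higher side (4.21% of all genes did) and 1 on the lower. The list averaged 7.30, 7.61, 7.47 and 7.78 in CCAT2-G mice and 7.20, 7.23, 7.40 and 7.55 in CCAT2-T mice, with overlap. Ddx18, an RNA helicase of the nucleolus, was at 6.93, 7.53, 7.25 and 7.70 in CCAT2-G mice and at 6.64, 6.73, 6.23 and 7.14 in CCAT2-T mice, a difference of 0.67 (SE 0.19, limma adjusted p = 0.743). Nop58 and Nop56, core proteins of box C/D small nucleolar particles, were higher by 0.68 (SE 0.22) and 0.43 (SE 0.16), and Nop56 did not overlap.

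Wdr12, which matures the large ribosomal subunit, was higher by 0.65 (SE 0.21), Nolc1, a nucleolar chaperone, by 0.48 (SE 0.20) and Srm, spermidine synthase and a classical Myc target, by 0.64 (SE 0.22). Myc was at 7.85, 8.40, 7.77 and 8.68 in CCAT2-G mice and at 7.31, 7.51, 8.16 and 8.17 in CCAT2-T mice. The difference of 0.39 (SE 0.23, adjusted p = 0.791) did not pass and the groups overlapped. Mnt, a repressor that competes with Myc for its partner, differed by -0.33 (SE 0.16), and Pvt1, the non-coding RNA beside Myc, by -0.06 (SE 0.27). The median of the list was 0.18 within the wider arrays and 0.09 within the narrow ones, where 31 of 42 members were higher, and 0.11 without CCAT2-G replicate 4. Cytosolic ribosomal proteins were higher in 21 of 29 (median 0.09), with Rpl27 at 0.29 (SE 0.10) and Rpl19 at 0.24 (SE 0.10).

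Of 43 genes of oxidative phosphorylation 37 were higher, with a median of 0.21, and 8 had an unadjusted p under 0.05, all on the higher side, where 4.21% of all genes lay. Sdhb, the iron-sulfur subunit of complex II, was at 9.18, 9.64, 9.61 and 9.56 in CCAT2-G mice and at 8.96, 9.10, 8.82 and 9.27 in CCAT2-T mice, a difference of 0.46 (SE 0.13, adjusted p = 0.743). Cycs, cytochrome c, was at 10.82, 11.31, 10.87 and 11.59 in CCAT2-G mice and in a band of 10.67 to 10.81 in CCAT2-T mice, without overlap. Ndufc1 of complex I was higher by 0.45 (SE 0.18), Uqcrc2 of complex III by 0.35 (SE 0.14) and Atp5c1 of the ATP synthase by 0.34 (SE 0.14), whereas Ndufb7 of complex I differed by -0.37 (SE 0.18). CCAT2-G replicate 1, on a narrow array, was the low mouse of its group in Sdhb, Ndufc1, Uqcrc2 and Atp5c1. The median was 0.21 within the wider arrays, -0.05 within the narrow ones and 0.32 without CCAT2-G replicate 1.

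**Figure D5:**
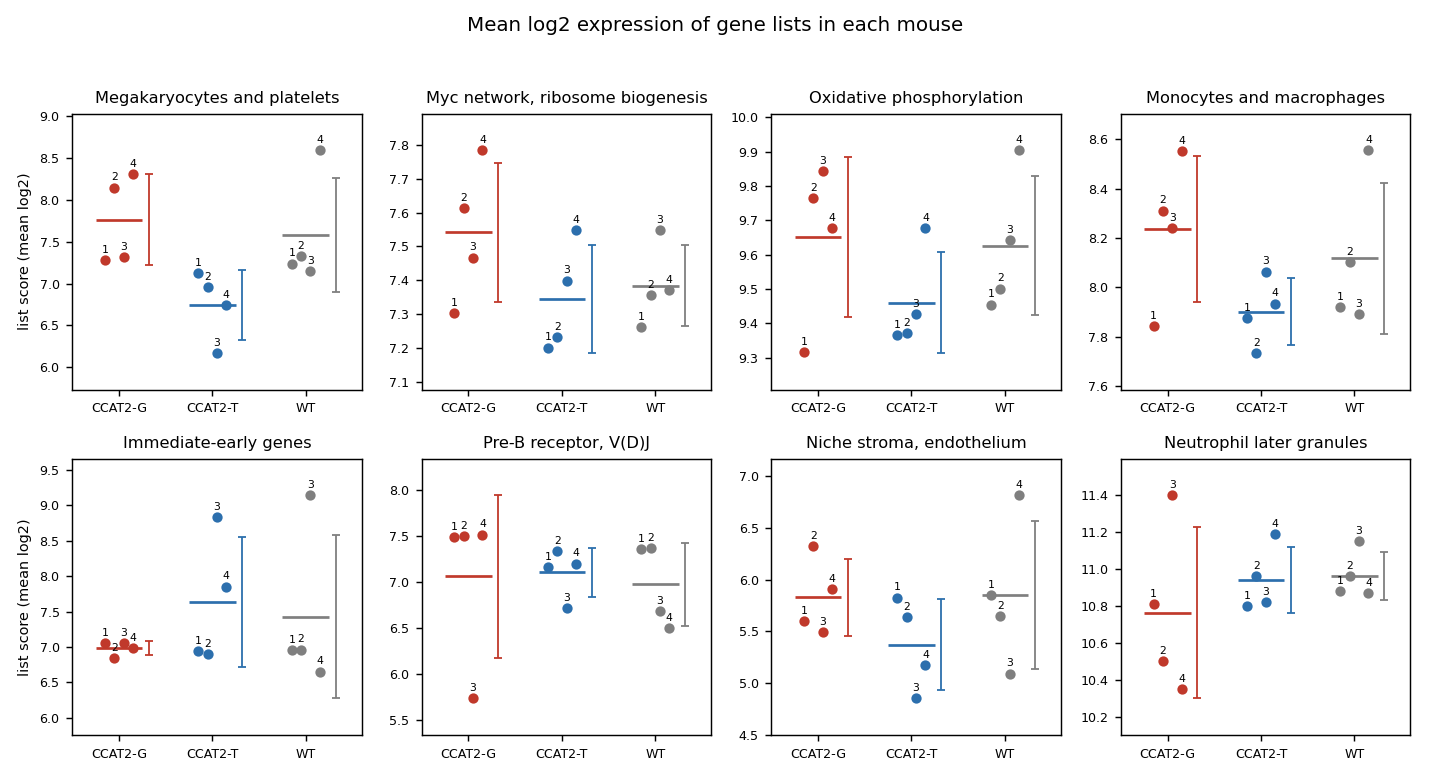
Mean log2 expression of the measured genes of 8 lists in each CCAT2-G, CCAT2-T and WT mouse (points, numbered by replicate), with group means (lines) and SD (bars at the side, n = 4). Only the megakaryocyte and platelet panel separates CCAT2-G from CCAT2-T mice among these 8, CCAT2-T replicates 3 and 4 and WT replicate 3 stand high in immediate-early genes, and CCAT2-G replicate 3 stands low in pre-B genes.

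Cell division itself differed little. Mitotic genes were higher in 29 of 41 (median 0.09) and replication genes in 21 of 39 (median 0.02). Rfc3, a subunit of the clamp loader, was higher by 0.53 (SE 0.21), and Rrm2, the small subunit of ribonucleotide reductase, differed by -0.42 (SE 0.15). Cholesterol and fatty acid synthesis had a median of 0.12 with 14 of 22 higher, among them Fasn, fatty acid synthase, at 0.38 (SE 0.16). Glycolysis and hypoxia genes had a median of -0.02 with 12 of 26 higher, although Ddit4, an inhibitor of mTOR signalling, was higher by 0.81 (SE 0.37). Replication-dependent histones had 1 of 5 higher and a median of -0.11.

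Immediate-early genes, most of them transcription factors of the AP-1 and EGR families and their regulators, were lower in CCAT2-G mice in 23 of 25 members, with a median of -0.52 and 0 passed. CCAT2-T replicates 3 and 4 were the high mice. The list averaged 7.05, 6.85, 7.05 and 6.99 in CCAT2-G mice and 6.95, 6.89, 8.84 and 7.85 in CCAT2-T mice, and WT replicate 3 was as high, at 9.15, with the other WT mice at 6.65 to 6.96. Fos was at 6.97, 6.03, 8.64 and 6.96 in CCAT2-G mice and at 5.95, 5.71, 12.62 and 11.32 in CCAT2-T mice. Egr1 was at 5.88, 5.61, 4.26 and 5.75 in CCAT2-G mice and at 6.07, 5.64, 10.80 and 8.29 in CCAT2-T mice, and Jun and Fosb were also highest in CCAT2-T replicate 3, at 10.13 and 7.82. The median was -0.26 without CCAT2-T replicate 3, -1.0 within the wider arrays and 0.10 within the narrow ones, where Fos differed by 1.14 and Egr1 by 0.02.

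Inflammatory genes of the NF-kB pathway had 12 of 28 higher and a median of -0.08. Ptgs2, the inducible cyclooxygenase, was at 2.41 to 2.57 in CCAT2-G mice and at 2.96, 2.30, 8.57 and 5.94 in CCAT2-T mice. Cxcl2, a chemokine for neutrophils, was at 2.70 to 3.47 in CCAT2-G mice and at 3.17, 3.31, 8.33 and 6.50 in CCAT2-T mice. The mice that were high were those high in immediate-early genes. Socs3, described above, had the opposite direction.

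Interferon genes differed by list. Of 47 type I interferon response genes 22 were higher (median -0.02). Of 26 interferon-induced GTPases and interferon gamma response genes 19 were higher, with 0 passed and a median of 0.11 that stayed above 0 under every alternative, at 0.03 to 0.23. Oas2, which makes the activator of RNase L, was at 8.29 in CCAT2-T replicate 3 and at 6.47 to 6.94 in the other 7 mice. Stat2, a transcription factor of the pathway, lay lower in CCAT2-G mice without overlap, at 4.92 to 5.21 against 5.23 to 5.59 in CCAT2-T mice, by a difference of -0.28 (SE 0.17), with the opposite direction at its 1 other probeset. Psmb8, a subunit of the immunoproteasome, was higher by 0.43 (SE 0.18). The unfolded protein and integrated stress response had 19 of 34 higher (median 0.11), with the chaperones Sdf2l1 at 0.63 (SE 0.23) and Pdia3 at 0.62 (SE 0.26).

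Genes tied to myeloid malignancy, chromatin and RNA processing had medians near that of all genes. Of 41 Polycomb and chromatin regulators 15 were higher (median -0.05). Mtf2, a DNA-binding partner of Polycomb repressive complex 2, did not overlap, at 7.82, 8.10, 8.11 and 8.28 in CCAT2-G mice and 7.68, 7.75, 7.16 and 7.78 in CCAT2-T mice, a difference of 0.48 (SE 0.15). Eed, a core subunit of that complex, differed by 0.33 (SE 0.14) and Ezh2, its methyltransferase, by -0.12 (SE 0.14). Of 25 drivers of myeloid malignancy in signalling and transcription 14 were higher and 11 lower (median 0.02), with differences of -0.55 to 0.37. Among the higher ones were Jak2, a cytokine receptor kinase, at 0.24 (SE 0.12), Phf6, a chromatin reader, at 0.37 (SE 0.14) and Ddx41, a helicase, at 0.36 (SE 0.15).

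Editing and RNA modification genes had 13 of 24 higher and a median of 0.05. Adar, which converts adenosine to inosine in double-stranded RNA, was at 6.72, 6.72, 6.83 and 6.74 in CCAT2-G mice and at 6.85, 6.75, 7.34 and 7.14 in CCAT2-T mice, a difference of -0.26 (SE 0.15, limma adjusted p = 0.787). Nsun2, an RNA cytosine methyltransferase, was higher by 0.55 (SE 0.20), Adat2, a tRNA deaminase, by 0.43 (SE 0.18) and Trdmt1, another RNA cytosine methyltransferase, by 0.58 (SE 0.20) without overlap. Splicing factors were split, with 12 of 23 higher (median 0.02) and U2af2, which reads the polypyrimidine tract, at -0.29 (SE 0.13). DNA repair genes had 21 of 36 higher (median 0.06). Xrcc4 of DNA end joining, higher by 0.38 (SE 0.13), was the 1 member (2.78%) higher without overlap, where 1.16% of all genes were. Lower without overlap were 2 members (5.56%), Trp53bp1 among them, against 1.13% of all genes. Nhej1, the partner of Xrcc4, was at -0.37 (SE 0.14). Genes of p53 had 11 of 25 higher and a median of -0.05.

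WNT pathway components and targets had 12 of 31 higher and a median of -0.05. Dvl1, the scaffold that relays the signal from the receptor, was the 1 of 31 members (3.23%) lower without overlap, where 1.13% of all genes were. It was at 8.40, 8.27, 8.10 and 8.44 in CCAT2-G mice and at 8.86, 8.49, 9.49 and 8.51 in CCAT2-T mice. Its difference was -0.53 (SE 0.19, adjusted p = 0.743), and WT mice were at 8.40 to 8.69. The Y-linked genes Eif2s3y and Uty were lowest in CCAT2-T replicate 3, at 2.14 and 3.12, and Uty did not overlap between the groups even among the other mice, at 4.63 to 4.84 in CCAT2-G mice and 4.11 to 4.49 in those 3 CCAT2-T mice.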

How the data were processed

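Total RNA of marrow cells from 18 mice was hybridised to Affymetrix arrays. The authors deposited log2 expression values for 45101 probesets, normalized with RMA per the submitters' processing notes, with software, version and probe definitions not given in the sources used here. Values ran from 1.56 to 14.19, from which the log2 scale was read. No 2 of the 8 arrays were identical (correlations 0.970 to 0.993). Arrays give no depth, so their number limits the precision.

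Probesets with 1 gene symbol in the platform annotation (34958, with 932 of several symbols and 9211 with none listed left out) were reduced to the brightest for each of 18194 genes. Genes with a mean under the 30th percentile of probeset means (3.30) were left out, which kept 14505. The 4 genotypes were fitted on all 18 arrays by limma 3.58.1 under R 4.3.3 with a trended eBayes step, a procedure tested on simulated data. A single gene also had an exact permutation test.

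The members and lists were chosen with earlier results of these data known. The 43 lists held 1258 entries, of which 1110 were on the array and 1077 measured (1001 different genes). The text names the 10 genes of smallest p in each direction without predicted genes and receptor segments, members of smallest p or with set roles in each list, and a fixed set of markers and study genes. Hba-a1 and Ddx3y of that set were not measured. Alternatives concerned normalization, filter, probesets, fit, sex, array spread and each mouse left out. The narrow and wider arrays were told apart at an interquartile range of 3.1. Replicate numbers mark no shared animal in the labels and were not used as pairs. Promoter sequences are RefSeq's (GRCm38.p6).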

Additional observations from a re-analysis of the deposited data

Results flagged for a closer look

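A mouse was taken as standing apart when its gap to the nearest of its group, divided by the range of the group, exceeded Dixon's critical value for 4 values. Chance gives about 5% of groups, and 29 of 352 groups checked were above it. Of these 13 were CCAT2-G replicate 3 and 11 CCAT2-T replicate 3.

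CCAT2-G replicate 3 was the lowest of its group in B-lineage values, with ratios of 0.984 for the mean of pre-B receptor and V(D)J recombination genes, 0.851 for B-lineage transcription factors, 0.902 for Rag1, 0.880 for Vpreb1 and 0.869 for Cd79a. It was also lowest in the means of bone matrix and osteoblast genes (0.956) and skeletal muscle genes (0.873) and in Egr1 (0.831) and U2af2 (0.873). It was the highest in the means of eosinophil, basophil and mast cell genes (0.960) and of inflammatory NF-kB genes (0.923), and in S100a8 (0.923) and Il1rap (0.845).

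CCAT2-T replicate 3 was the highest of its group in Xist (0.974), Fosb (0.934), Oas2 (0.915), Il2rb (0.888) and Cchcr1 (0.845). It was the lowest in the Y-linked Eif2s3y (0.970) and Kdm5d (0.939), in the red-cell factor Klf1 (0.907), in Trdmt1 (0.865), Gp5 (0.855) and Mtf2 (0.837). CCAT2-G replicate 1 was the lowest in Atp5c1 (0.847), Sdhb (0.834) and Adat2 (0.831), CCAT2-G replicate 2 the highest in Pvt1 (0.840), and CCAT2-T replicate 1 the lowest in the mean of plasma cell genes (0.864).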

How the results depend on the processing

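The comparison was recomputed under 23 alternatives, 8 of which left out 1 mouse. The count of genes past the adjusted threshold was 0, except that it was 1, Add1, after quantile normalization, with the 50th percentile filter and without CCAT2-T replicate 1 (0 to 1 over the left-out mice; Add1 at -1.09, -1.04 and -1.14). The count at unadjusted p under 0.05 was 2753 with array weights, 1826 with every named probeset and 536 to 1684 with a mouse left out, lowest without CCAT2-T replicate 3 and highest without CCAT2-G replicate 1. With the replicate number as a block on the 8 arrays alone it was 1371, against 801 on those arrays without the block, and no gene passed. Deviations of same-numbered mice from their group means correlated at 0.44, 0.26, 0.28 and 0.02. The labels name no pairs, so the numbers were not used as pairs, and the cause of these correlations was not tested. Higher and lower genes numbered 624 and 536 after quantile normalization, 667 and 558 with array spread as a block and 618 and 627 within the wider arrays, against 611 and 301. Genes without overlap numbered 584 after quantile normalization, 663 with every probeset and 471 to 1505 with a mouse left out, where 3 mice face 4.

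List medians kept their sign under all alternatives in 8 of 42 lists, megakaryocytes and platelets among them (0.21 within the narrow arrays). Within the wider arrays medians moved to -0.074 for DNA repair, -0.25 for erythroid and megakaryocyte transcription factors, 0.70 for stroma, -0.061 for RNA editing and modification and -0.18 for splicing. Within the narrow arrays they moved to 0.035 for those transcription factors, -0.016 for monocytes, -0.048 for oxidative phosphorylation, 0.11 for plasma cells and 0.23 for T cells, and with array weights to 0.18 for DNA repair and 0.019 for the transcription factors. DNA repair ranged from -0.049 to 0.071 with a mouse left out. The cause of these shifts was not tested.

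Among single genes, 81 of 2941 recomputed differences changed sign, 23 of them within the narrow arrays, which hold 1 CCAT2-G and 2 CCAT2-T mice and allow no test. Of those 23, 10 also moved by more than the spread between mice: 1.14 for Fos, 0.022 for Egr1, -0.39 for Lepr, -0.37 for Cpa3, -0.20 for Adipoq, -0.17 for Fcgr1, -0.14 for Adat2, -0.12 for Cxcl12, -0.059 for Itga2b and -0.023 for Atp5c1. The other 58 arose under the other alternatives. Add2 came to -0.046 after quantile normalization, -0.14 with the mean of probesets, -0.0091 with the sex score and -0.027 with array spread as a block. That block also gave -0.12 for Cd34, 0.14 for Cd3e and for Cd79a, -0.11 for Kit, 0.028 for Klf1 and 0.092 for Vpreb1. The wider arrays gave -0.10 for Cd34, 0.024 for Cd3e, -0.13 for Kit, 0.016 for Klf1 and 0.012 for Pvt1. Array weights gave 0.098 for Ezh2, 0.11 for Klf1, 0.15 for Pvt1 and 0.39 for Vpreb1. The mean of probesets gave 0.034 for Pvt1, 0.047 for Slc4a1 and 0.072 for Tyw1. Median centring gave 0.0086 for Cd3e, quantile normalization 0.015 for S100a8, and the sex score -0.29 for Eif2s3y and 0.025 for Xist. With a mouse left out, differences ranged from -0.18 to 0.16 for Add2, -0.25 to 0.036 for Add3, -0.26 to 0.46 for Cd34, -0.17 to 0.20 for Cd3e, -0.72 to 0.61 for Cd79a, -0.018 to 1.79 for Eif2s3y, -0.31 to 0.19 for Elane, -0.13 to 0.32 for Kit, -0.24 to 0.19 for Klf1, -0.18 to 0.83 for Ms4a1, -0.24 to 0.018 for Pvt1, -1.56 to 0.54 for Rag1 and -0.70 to 0.95 for Vpreb1.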
